A study of Homo sapiens with 6 samples.

Results

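Genes that drive the loss of the primary cilium, and genes that license the basal body to build one, were read out of RNA sequencing counts from HuCCT1 cells, an established line of human cholangiocarcinoma, a cancer of the bile duct. They are 10 genes chosen by symbol: HDAC6, AURKA, NEDD9, PLK1, KIF24, KIF2A, TTBK2, CEP164, CCP110 and CEP97. All 10 were found among the 26485 rows of the table and all 10 passed the filter on low counts. AQP1 KO clone 22, made with CRISPR/Cas9 against the water channel gene AQP1, gave libraries a, b and c. It was set against CRISPR clone 1, labelled WT, which also gave libraries a, b and c. Both were grown in flasks in DMEM-F12 with serum, and polyadenylated RNA was sequenced with a stranded kit. Each genotype is 1 clone, so genotype and clone cannot be told apart. Whether the letters stand for separate cultures is not labelled; the p-values therefore reflect only how far these libraries scattered, and that scatter may be technical.

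The primary cilium is a microtubule-based antenna that grows from the mother centriole of a resting cell and is taken down before mitosis. In the bile duct it projects from cholangiocytes into the lumen and senses flow and osmolality, and cholangiocarcinoma cells often lack it. Disassembly is set off when the scaffold NEDD9 (also called HEF1) activates the kinase AURKA, which activates the tubulin deacetylase HDAC6. PLK1 and depolymerizing kinesins take part in the same process. Assembly is held back by a cap of CCP110 (CP110) and CEP97 on the centriole. The cap is removed by the kinase TTBK2, which CEP164 recruits to the distal appendages.

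The libraries held 36925338 to 41724447 counts. AQP1 itself had 10, 7 and 7 counts in KO libraries a, b and c, against 2, 8 and 10 in WT libraries a, b and c. AQP1 fell below the filter on low counts, and no difference was detectable at this depth when it was added back in a separate fit (log2 fold change 0.27, SE 0.63; edgeR's quasi-likelihood test, Benjamini-Hochberg (BH) adjusted p = 0.715), and RNA can persist from an edited gene, which leaves the genotype labels unchecked by these counts. The bile duct keratin gene KRT7 stood at 1613 ± 12.5 CPM in KO and 1751 ± 38.3 CPM in WT, where CPM is counts per 1000000 counts of the library and values are mean ± SD (n = 3 libraries). KRT19, the other defining keratin, stood at 93.5 ± 4.59 CPM in KO and 756 ± 13.8 CPM in WT. The 12 cholangiocyte markers summed to 2081 to 2114 CPM in KO libraries and 3967 to 4036 CPM in WT libraries. Of 10 tested markers, 2 were higher and 7 lower in KO. SPP1, among the higher, reached the CPM minimum of the filter in 3 KO libraries but in only 2 WT libraries. Such counts stand beside 74.4% of all 14405 tested genes called at the threshold given below, 37.1% higher and 37.2% lower in KO. Markers of other cell types also differed between the groups. The 10 fibroblast markers summed to 37.6 to 40.3 CPM in KO and 17.4 to 19.2 CPM in WT, with 4 of 6 tested higher and none lower; of these DCN passed the filter only through the KO libraries. The 10 hepatocyte markers summed to 84.5 to 91.6 CPM in KO and 52.4 to 56.2 CPM in WT, with both tested markers higher, FGB (593, 683 and 577 counts in KO libraries a, b and c, against 1, 2 and 2 in WT libraries a, b and c) having passed the filter only through the KO libraries, and APOB, TTR and CYP3A4 at 0 counts in all 6 libraries. The 8 immune markers summed to 205 to 212 CPM in KO and 107 to 113 CPM in WT, with all 3 tested markers higher; nearly all of that came from CD68 (207 ± 3.83 CPM in KO, 109 ± 2.91 CPM in WT), and PTPRC and MS4A1 were at 0 counts. In 3 KO libraries but in only 1 WT library, ITGAM, 1 of these 3 markers, reached the CPM minimum of the filter. Its call (edgeR quasi-likelihood, BH-adjusted p = 0.0359) was lost with DESeq2 (0.069), with no low-count filter (0.076) and without any single library except WT library a (0.0674 to 0.138). Of 3 tested endothelial markers none was called in either direction. The part of these markers in the results below was not tested.

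Of the 10 genes, 2 were higher in the KO clone (TTBK2 and KIF2A), 6 were lower (NEDD9, AURKA, CEP97, PLK1, CCP110 and CEP164) and 2 were not called (HDAC6 and KIF24). The threshold for a call was 0.05 on the BH-adjusted p of edgeR's quasi-likelihood fit to all 14405 tested genes. Many genes differed between these clones: 74.4% of tested genes were called, 37.1% higher and 37.2% lower in KO, so 8 of 10 is near the background. CPM values of the groups did not overlap in 9 of the 10 genes, against 77.3% of all tested genes. The sizes were mostly modest. Only NEDD9 and TTBK2 differed by at least 2-fold, and the other 6 called genes differed by less than 1.5-fold. The median absolute log2 fold change was 0.37 over the 10 genes and 0.46 over all tested genes. The signed medians were -0.29 and 0.01.

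**Figure D1:**
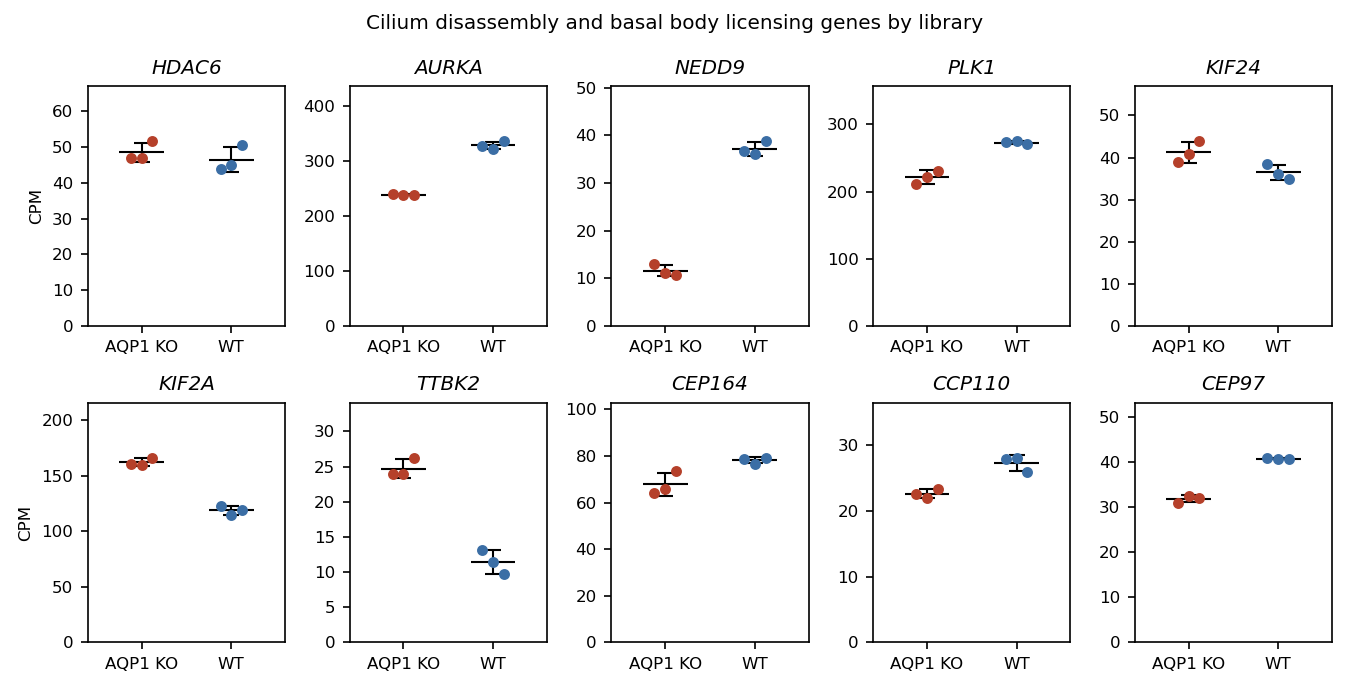
Level of each of the 10 genes in CPM (vertical axis, from 0) in the 3 AQP1 KO and 3 WT libraries; points are libraries, horizontal bars the mean and vertical bars the SD. NEDD9 lies at 10.7 to 13.0 CPM in KO and 36.0 to 38.7 CPM in WT, TTBK2 is higher in every KO library, and only the HDAC6 groups overlap.

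NEDD9, a focal adhesion scaffold of the CAS family that activates AURKA at the basal body, showed the largest difference. It had 13.0, 11.2 and 10.7 CPM in KO libraries a, b and c, against 36.6, 36.0 and 38.7 CPM in WT libraries a, b and c. All KO libraries were far below all WT libraries. NEDD9 fell to 0.302 of the WT level (log2 fold change -1.73, SE 0.072; edgeR quasi-likelihood, BH-adjusted p = 5.99e-11). Of all tested genes, 11.9% had a larger absolute change. The 3 genes whose profile over the 6 libraries was nearest to that of NEDD9, by root mean square difference of centred log2 CPM, were STMN3 (0.045), CDK14 (0.062) and FAM135A (0.068). Their CPM in KO and WT were 15.1 ± 1.07 and 49.7 ± 2.82 for STMN3, and 24.6 ± 0.733 and 78.3 ± 1.19 for CDK14. FAM135A stood at 10.7 ± 0.468 CPM in KO and 33.9 ± 1.49 CPM in WT.

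The stretch before a gene's start is shown for NEDD9 and PLK1, which fell, and for KIF2A, which rose, because they differ in base composition and in the cell cycle motifs they hold. Sequences are from RefSeq on GRCh38.p14, within the 250 bases before the start that its promoter table gives, 5′ to 3′ on the gene's strand, and end before the first annotated coding-transcript exon of GENCODE v29. Of the 10 genes, 9 had an entry in that table; the exception is AURKA. Capitals mark the CHR element (TTTGAA or TTTAAA), a site of cell cycle genes bound by MuvB complexes, the CCAAT box (CCAAT), bound by NF-Y, and the E2 box (CACCTG), bound by ZEB and SNAI repressors, each searched on both strands. TTTAAA reads the same on both strands and was counted once.
NEDD9 (chr6:11382349-11382598, minus strand): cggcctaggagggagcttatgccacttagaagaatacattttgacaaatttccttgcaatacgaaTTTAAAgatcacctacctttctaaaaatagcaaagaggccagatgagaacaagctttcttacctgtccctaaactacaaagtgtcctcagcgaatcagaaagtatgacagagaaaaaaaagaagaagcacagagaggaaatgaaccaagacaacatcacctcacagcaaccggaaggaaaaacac
PLK1 (chr16:23678639-23678821, plus strand): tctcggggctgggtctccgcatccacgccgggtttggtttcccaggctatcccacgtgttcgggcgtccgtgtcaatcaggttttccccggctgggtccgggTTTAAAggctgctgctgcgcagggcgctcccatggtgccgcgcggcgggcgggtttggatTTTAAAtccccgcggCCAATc
KIF2A (chr5:62305956-62306161, plus strand): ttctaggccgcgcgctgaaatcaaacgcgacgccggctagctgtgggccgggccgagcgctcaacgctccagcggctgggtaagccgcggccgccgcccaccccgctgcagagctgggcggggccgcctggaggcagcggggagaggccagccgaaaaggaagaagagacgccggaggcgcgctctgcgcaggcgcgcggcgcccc

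The motifs were searched in the whole 250 bases. For HDAC6, KIF24, TTBK2 and CEP164 the start in that table lies inside the gene's outermost bounds, so their windows lie within the gene span, that of TTBK2 for the most part. The NEDD9 window was 40.4% G and C and held 1 TTTAAA at positions -185 to -180, counted back from the start. PLK1 was 64.8% G and C, with TTTAAA at -148 to -143 and at -88 to -83, a CCAAT box at -73 to -69 and TTTGAA at -29 to -24; none of these overlap, and the last lies beyond the printed stretch. KIF2A was 76.8% G and C and held none of the 3 motifs. The TTBK2 window was 64% G and C and held a CCAAT box at -112 to -108 and 2 E2 boxes, at -104 to -99 and, on the other strand, at -66 to -61. Of 11208 tested genes with such a window, 14.5% held a CHR element, 34.9% a CCAAT box and 16.1% an E2 box. A CCAAT box was also found in the windows of HDAC6, KIF24, CEP164 and CEP97. No CHR element was found in the windows of CEP164, CCP110 and CEP97, which also fell, or of HDAC6, KIF24 and TTBK2. Any part of these motifs in the changes was not tested. The CCP110 window held none of the 3 motifs.

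AURKA, the mitotic kinase that also acts at the basal body, had 239.8, 239 and 238 CPM in KO libraries a, b and c, against 328, 322.5 and 336 CPM in WT libraries a, b and c. The KO libraries lay almost on 1 value, well under the WT libraries. AURKA fell to 0.7 of the WT level (log2 fold change -0.51, SE 0.025; edgeR quasi-likelihood, BH-adjusted p = 2.53e-10). PLK1, a mitotic kinase that phosphorylates KIF2A and promotes HDAC6 activity in disassembly, had 211, 222 and 231 CPM in KO libraries a, b and c, against 273, 275 and 271 CPM in WT libraries a, b and c. It fell to 0.781 of the WT level (log2 fold change -0.36, SE 0.030; edgeR quasi-likelihood, BH-adjusted p = 1.09e-07), with no overlap of the groups. In bulk RNA, fewer cells in the phase that expresses such genes and less RNA per cell cannot be told apart. The pseudogene AURKAPS1, which could take reads of AURKA, had 6 to 16 counts in KO libraries and 21 to 49 in WT libraries, against 8803 or more for AURKA in each library. PLK1 shares 7% of its exon bases with an antisense RNA of the opposite strand. Whether reads were counted by strand is not given in the sources used here.

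HDAC6, which removes acetyl groups from ciliary tubulin, was the gene with the smallest difference of the 10. It had 46.9, 47.1 and 51.6 CPM in KO libraries a, b and c, against 44.0, 45.0 and 50.6 CPM in WT libraries a, b and c. The groups overlapped, and library c was the highest in both. The log2 fold change was 0.0062 with a 95% interval of -0.13 to 0.14 (edgeR quasi-likelihood, BH-adjusted p = 0.934). Its sign turned when single libraries were left out, with values of -0.038 to 0.066.

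The kinesins of the group differed in what they did. KIF2A, a kinesin that shortens ciliary microtubules after phosphorylation by PLK1, had 160.5, 159.8 and 166 CPM in KO libraries a, b and c, against 123, 115 and 119 CPM in WT libraries a, b and c. Every KO library was above every WT library, and KIF2A rose 1.31-fold (log2 fold change 0.39, SE 0.030; edgeR quasi-likelihood, BH-adjusted p = 3.7e-08). KIF24, a centriolar kinesin that binds CCP110 and depolymerizes microtubules there, had 39.0, 40.9 and 43.9 CPM in KO libraries a, b and c, against 38.5, 36.0 and 34.9 CPM in WT libraries a, b and c. The groups did not overlap, but KO library a and WT library a were close. KIF24 was not called (log2 fold change 0.12, 95% interval -0.011 to 0.25; edgeR quasi-likelihood, BH-adjusted p = 0.0884). The edgeR adjusted p was 0.0297 without KO library a, 0.0382 without WT library a and 0.0201 when library totals alone were used for scaling. KIF24 shares 2.33% of its exon bases with UBAP1 on the opposite strand, which had 6047 to 6593 counts in KO libraries and 5240 to 5469 in WT libraries.

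TTBK2, the kinase that removes CCP110 from the mother centriole and so licenses ciliogenesis, had 24.0, 24.0 and 26.2 CPM in KO libraries a, b and c. WT libraries a, b and c had 13.2, 11.5 and 9.68 CPM. All KO libraries were well above all WT libraries, among which the spread was widest of the 10 genes (coefficient of variation 15.3%). TTBK2 rose 2.08-fold (log2 fold change 1.06, SE 0.094; edgeR quasi-likelihood, BH-adjusted p = 1.93e-07), and 22% of tested genes had a larger absolute change. TTBK2 counts are the least certain of the 10. Of its exon bases, 16.9% are shared with a noncoding RNA of the opposite strand and 9.93% with KRT8P50, a processed pseudogene of the keratin gene KRT8 on the same strand. KRT8 itself was lower in KO, at 640 ± 20.5 CPM in KO and 2047 ± 24.4 CPM in WT. The part of these overlaps in the change of TTBK2 was not tested.

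CEP164, the distal appendage protein that recruits TTBK2, moved the other way. It had 64.3, 65.9 and 73.4 CPM in KO libraries a, b and c, against 78.8, 76.7 and 79.2 CPM in WT libraries a, b and c. The groups did not overlap, with KO library c nearest to WT. CEP164 fell to 0.835 of the WT level (log2 fold change -0.26, SE 0.046; edgeR quasi-likelihood, BH-adjusted p = 0.000175).

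Both genes of the centriolar cap were lower in KO. CCP110 had 22.5, 22.0 and 23.3 CPM in KO libraries a, b and c, against 27.9, 28.1 and 25.9 CPM in WT libraries a, b and c. Its partner CEP97, which stabilizes CCP110, had 31.0, 32.6 and 32.0 CPM in KO libraries a, b and c, against 40.9, 40.7 and 40.6 CPM in WT libraries a, b and c. Neither gene's groups overlapped. CCP110 fell to 0.799 of the WT level (log2 fold change -0.32, SE 0.056; edgeR quasi-likelihood, BH-adjusted p = 0.000132) and CEP97 to 0.753 (log2 fold change -0.41, SE 0.053; edgeR quasi-likelihood, BH-adjusted p = 8.73e-06).

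Ratios of counts within a library do not depend on scaling between libraries, and they show how partners shifted against each other. The log2 ratio of CCP110 over CEP97 was -0.49 ± 0.061 in KO and -0.58 ± 0.058 in WT libraries (SD, n = 3 each). That is a difference of 0.085, with overlapping groups. TTBK2 over CEP164 was -1.46 ± 0.030 in KO and -2.78 ± 0.229 in WT, a difference of 1.33 with no overlap. CCP110 over KIF24 was -0.86 ± 0.065 in KO and -0.42 ± 0.056 in WT. The ratio of NEDD9 over AURKA was -4.37 ± 0.139 in KO and -3.15 ± 0.026 in WT, a difference of -1.22. AURKA over TPX2, the spindle protein that activates AURKA, differed least among the ratios that did not overlap, at -1.36 ± 0.032 in KO and -1.25 ± 0.042 in WT. KIF24 over KIF2A was -1.98 ± 0.061 in KO and -1.71 ± 0.054 in WT. These values are descriptions with no test.

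**Figure D2:**
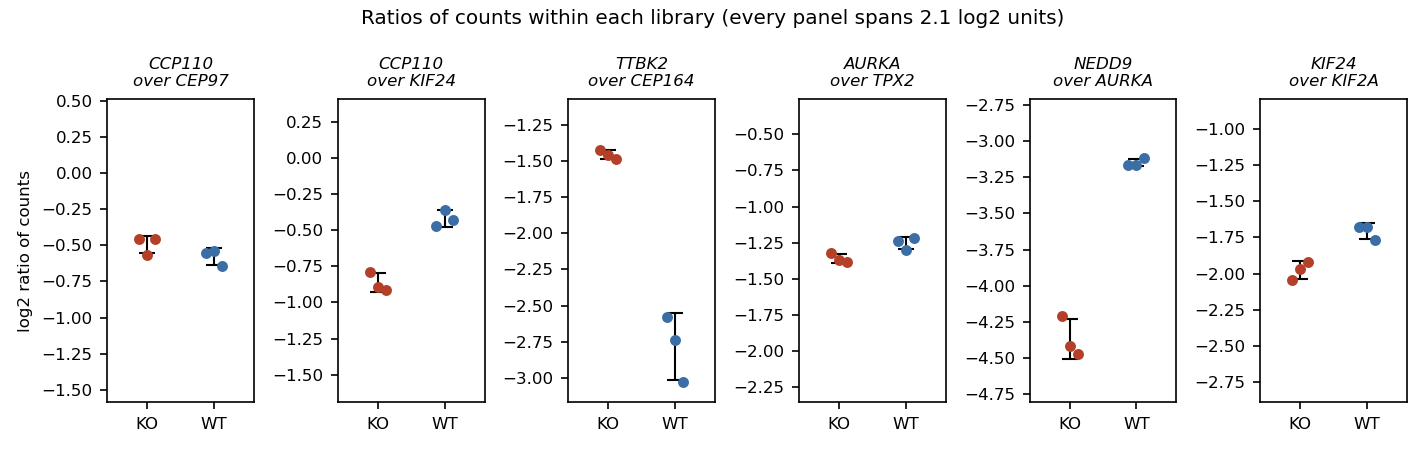
Log2 ratio of counts of gene pairs within each library (vertical axis), with AQP1 KO left and WT right in each panel; points are libraries and bars the mean ± SD. TTBK2 over CEP164 is 1.33 higher and NEDD9 over AURKA 1.22 lower in KO, while CCP110 over CEP97 overlaps.

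Levels of different genes were compared as CPM per kilobase of exon, with exon lengths from GENCODE v29 coding transcripts. The mitotic kinases stood highest in both clones: PLK1 at 99.4 ± 4.51 and AURKA at 87.5 ± 0.262 in KO, and 122.5 ± 0.861 and 120.4 ± 2.54 in WT. In WT the ranges of PLK1 and AURKA overlapped. KIF2A came next at 44.6 ± 0.926 in KO and 32.8 ± 1.11 in WT, then CEP164 (12.1 ± 0.866 in KO, 13.9 ± 0.238 in WT), HDAC6 (8.53 ± 0.471 in KO, 8.18 ± 0.626 in WT) and KIF24 (6.73 ± 0.401 in KO, 5.95 ± 0.301 in WT). CCP110 and CEP97 were alike, at 3.99 ± 0.115 and 3.81 ± 0.0962 in KO and 4.82 ± 0.208 and 4.87 ± 0.021 in WT, with overlapping ranges in each clone. NEDD9 overlapped both of them in WT at 4.85 ± 0.185 and was the lowest of the 10 in KO at 1.52 ± 0.154. TTBK2, the lowest in WT at 0.907 ± 0.138, stood at 1.96 ± 0.105 in KO, above NEDD9.

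Each gene was set beside the median log2 fold change of the other tested genes within 5 Mb on either side (positions from RefSeq, GRCh38.p14). NEDD9, TTBK2 and AURKA lay furthest from their neighbours' medians. Around NEDD9 (chromosome 6, 11183298 to 11382348) the median of 36 genes was -0.07, and NEDD9 lay 1.66 below it. TTBK2 (chromosome 15, 42738730 to 42921000) lay in a raised stretch, where 68 of 101 neighbours were higher, 15 lower and the median was 0.44; TTBK2 itself was 0.62 above that median. Around AURKA (chromosome 20, 56369390 to 56392215) the median of 32 genes was 0.01, and AURKA lay 0.52 below it; within 10 Mb the median of 119 genes was -0.21. PLK1 and CCP110, which lie about 4 Mb apart on chromosome 16 with overlapping windows, had neighbour medians of -0.08 (62 genes) and -0.14 (60 genes).

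CEP97 (chromosome 3, 101724614 to 101770562) had a log2 fold change of -0.41 beside a median of -0.40 over 35 neighbours, of which 22 were lower and 9 higher. KIF2A (chromosome 5, 62306206 to 62391025) had 0.39 beside 0.24 over 24 neighbours, and beside 0.43 within 2 Mb. CEP164 on chromosome 11 had -0.26 beside -0.14 over 69 neighbours, and beside -0.27 within 2 Mb. For HDAC6 on the X chromosome (0.08 over 77 genes) and KIF24 on chromosome 9 (-0.07 over 80 genes) the medians were near 0. The part of a gene's surroundings in its own change was not tested.

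**Figure D3:**
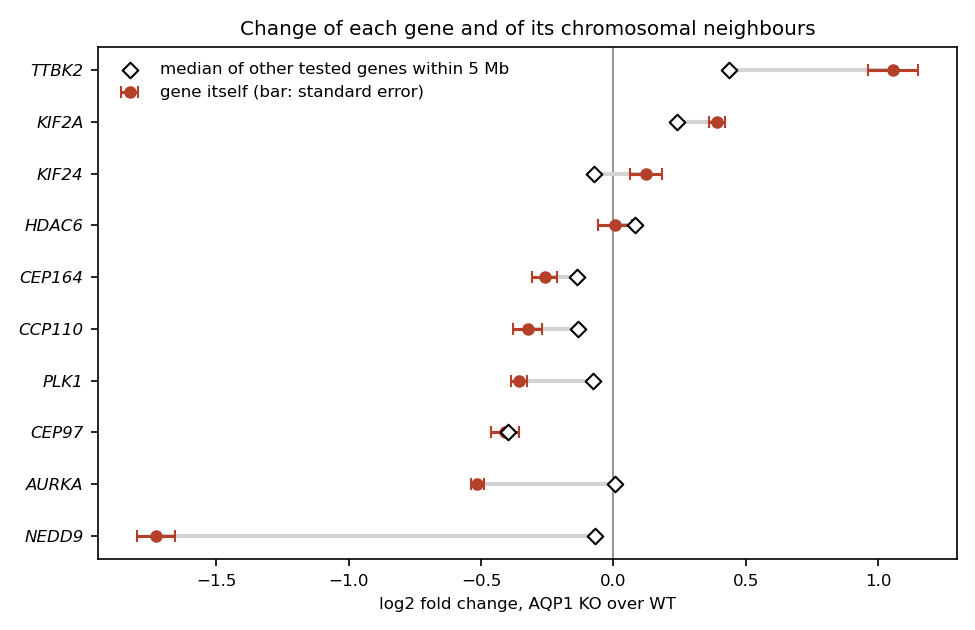
Log2 fold change (AQP1 KO over WT, horizontal axis) of each of the 10 genes with its standard error (filled circles) and the median of the other tested genes within 5 Mb (open diamonds). CEP97 coincides with its neighbours at -0.41 and -0.40, while NEDD9 lies 1.66 below its neighbours.

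AURKA and PLK1 are read in cycling cells with many other genes of G2 and mitosis. Of 37 such genes, all tested, 20 were higher in KO, 10 lower and 7 not called, with a median log2 fold change of 0.11, where 74.4% of all tested genes were called, 37.1% higher and 37.2% lower. The largest rises were CDC25C, a phosphatase that activates CDK1 (31.6 ± 1.59 CPM in KO, 13.7 ± 1.59 in WT; log2 fold change 1.15), and KIF20A, a cytokinesis kinesin (267 ± 5.09 CPM in KO, 132 ± 0.846 in WT; 0.96). The deepest falls were NEK2, a centrosomal kinase that phosphorylates KIF24 (87.5 ± 1.29 CPM in KO, 155 ± 5.79 in WT; -0.88), and the kinetochore gene CENPF (320 ± 10.5 CPM in KO, 555 ± 19.4 in WT; -0.85). TPX2 also fell, to 613 ± 11.9 CPM in KO against 784 ± 9.97 CPM in WT (log2 fold change -0.41; edgeR quasi-likelihood, BH-adjusted p = 2.46e-09). MKI67, a general marker of cycling cells named after its values were seen, stood at 1005 ± 19.7 CPM in KO and 959 ± 45.6 CPM in WT and was not called (log2 fold change 0.01; edgeR quasi-likelihood, BH-adjusted p = 0.733).

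**Figure D4:**
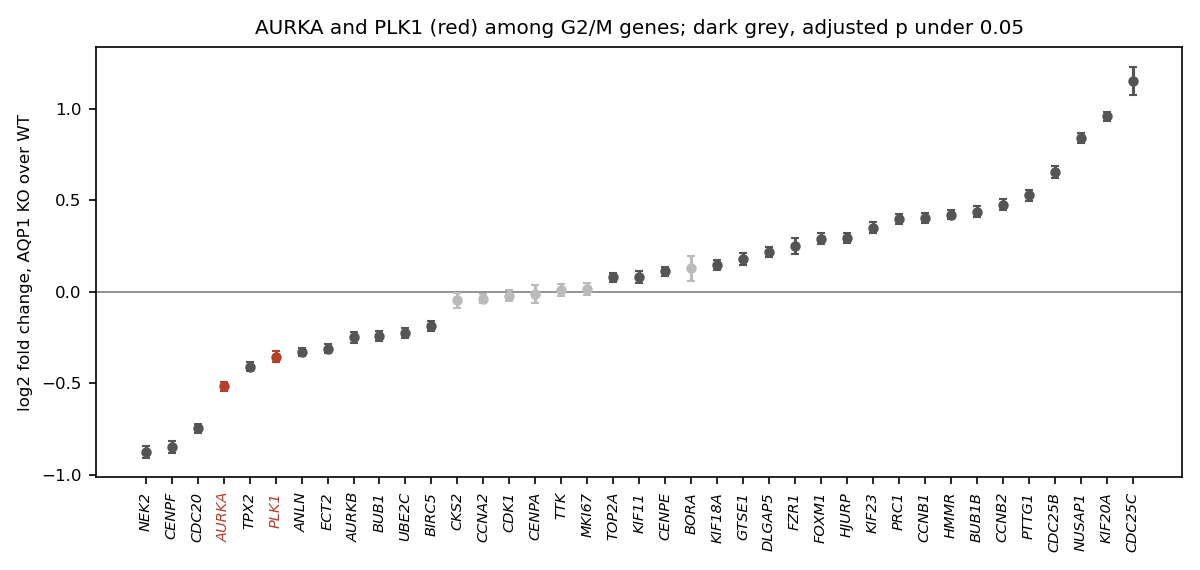
Log2 fold change (AQP1 KO over WT, vertical axis) with standard error of 37 G2/M genes and of AURKA and PLK1 (red), in rising order; light grey genes were not called. AURKA at -0.51 and PLK1 at -0.36 lie among the lowest, beside NEK2, CENPF, CDC20 and TPX2, while 20 genes of the list were higher in KO.

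Genes known to work with NEDD9 and AURKA in disassembly had no common direction. Of 25, all tested, 10 were higher in KO, 11 lower and 4 not called, and the median log2 fold change was 0.01. Over all tested genes 74.4% were called, 37.1% higher and 37.2% lower in KO. WNT5A, a ligand of the noncanonical WNT route that acts on NEDD9 and AURKA through PLK1, had 248, 324 and 223 counts in KO libraries a, b and c, against 0, 2 and 4 in WT libraries a, b and c. It passed the filter only through the KO libraries. The calmodulin gene CALM3, whose product binds and activates AURKA, rose to 544 ± 6.36 CPM in KO against 310 ± 4.39 CPM in WT (log2 fold change 0.76). The deepest falls were NEK2, given above, and CSNK1E, a casein kinase gene, at 0.644 ± 0.139 CPM in KO and 1.39 ± 0.190 CPM in WT (log2 fold change -1.17). CSNK1E is uncertain, since the table also lists a readthrough gene that contains it. TCHP, which encodes trichoplein, an activator of AURKA at the centriole, was named after its values were seen and fell to 36.3 ± 3.20 CPM in KO against 46.6 ± 3.71 CPM in WT (log2 fold change -0.41; edgeR quasi-likelihood, BH-adjusted p = 0.000176).

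Enzymes that acetylate, deacetylate, glutamylate or otherwise modify tubulin had calls in both directions. Of 21 listed, 20 were found and 15 tested; 10 were higher in KO, 2 lower and 3 not called, with a median log2 fold change of 0.48, where 37.1% of all tested genes were higher, 74.4% called and the median was 0.01. TTLL7, a tubulin glutamylase, rose to 31.3 ± 1.57 CPM in KO against 8.50 ± 0.165 CPM in WT (log2 fold change 1.82). AGBL2, a deglutamylase of low level, had 2.06 ± 0.406 CPM in KO and 0.365 ± 0.171 CPM in WT (2.43). AGBL2 reached the CPM minimum of the filter in 3 KO libraries but in only 2 WT libraries. TTLL4, another glutamylase, fell to 35.4 ± 1.62 CPM in KO against 53.4 ± 3.52 CPM in WT (-0.65), and AGBL3 to 0.445 ± 0.058 CPM in KO against 1.14 ± 0.341 CPM in WT (-1.40). SIRT2, the other tubulin deacetylase beside HDAC6, was named after its values were seen and rose to 31.9 ± 1.79 CPM in KO against 16.0 ± 0.959 CPM in WT (log2 fold change 0.94; edgeR quasi-likelihood, BH-adjusted p = 1.18e-08). ATAT1, the tubulin acetyltransferase that opposes HDAC6, had 0 to 2 counts in the 6 libraries. Counts were low in much of its region on chromosome 6. The 40 other genes within 500 kb had a median of 4.08 counts a library, though 14 of them passed the filter on low counts. ABCF1 and GNL1, which most cells express, had 1 to 7 and 1 to 6 counts. The ATAT1 count therefore says little about the gene, and no ratio of HDAC6 over ATAT1 was formed.

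Licensing factors around TTBK2 and CEP164 had calls in both directions. Of 22 distal appendage and ciliary vesicle genes, 6 were higher in KO, 11 lower and 5 not called, with a median log2 fold change of -0.24; 37.2% of all tested genes were lower and 74.4% called, so the share called is near the background. FUZ, a planar polarity effector needed for ciliogenesis, fell to 1.27 ± 0.102 CPM in KO against 5.78 ± 0.610 CPM in WT (log2 fold change -2.24), and LRRC45, a distal appendage gene, to 17.4 ± 1.24 CPM in KO against 31.6 ± 1.70 CPM in WT (-0.91). EHD3, a membrane-shaping gene of the ciliary vesicle, rose to 4.12 ± 1.26 CPM in KO against 0.689 ± 0.071 CPM in WT (2.52), and MYO5A, a motor that brings vesicles to the centriole, to 111 ± 4.19 CPM in KO against 49.6 ± 1.87 CPM in WT (1.11). Partners of CP110 and enzymes of its turnover also had calls in both directions: of 15, 8 were higher, 4 lower and 3 not called, with a median of 0.25, where 37.1% of all tested genes were higher and 74.4% called. The ubiquitin ligase gene HERC2 rose to 27.6 ± 1.64 CPM in KO against 14.5 ± 1.49 CPM in WT (log2 fold change 0.87). CEP76, which restrains centriole duplication, fell to 10.7 ± 0.421 CPM in KO against 12.9 ± 1.24 CPM in WT (-0.32). A difference between these lists was not tested.

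**Figure D5:**
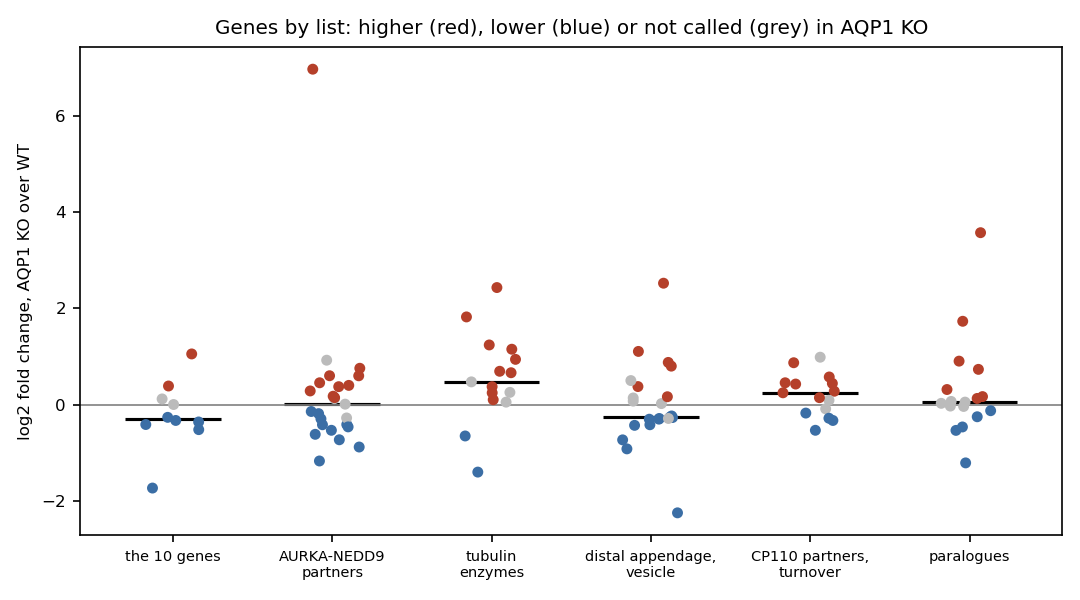
Log2 fold change (AQP1 KO over WT, vertical axis) of the 10 genes and of the tested genes of 5 related lists; each point is a gene, coloured by call, and horizontal bars are medians. The medians run from -0.29 for the 10 genes to 0.48 for the tubulin enzymes, with genes on both sides of 0 in every list.

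Paralogues of the 10 genes showed which family members the clones express. Of 22, 17 were tested: 7 were higher in KO, 5 lower and 5 not called, with a median log2 fold change of 0.06. Among all tested genes 74.4% were called, 37.1% higher and 37.2% lower, so the share called is near the background. HDAC4, a class II deacetylase, rose to 12.2 ± 0.849 CPM in KO against 0.989 ± 0.207 CPM in WT (log2 fold change 3.57), and HDAC3, of class I, to 81.0 ± 1.67 CPM in KO against 41.6 ± 0.747 CPM in WT (0.91). HDAC2 and HDAC9 fell, by 0.46 and 0.53 on the log2 scale. HDAC1, HDAC5, HDAC7, HDAC8 and HDAC10 were not called, with log2 fold changes from -0.03 to 0.07; under scaling by library totals HDAC1 and HDAC7 turned to 0.028 and 0.020. HDAC11 passed at 0.32 (edgeR quasi-likelihood, BH-adjusted p = 0.0313), but the edgeR adjusted p was 0.0587 and 0.101 without KO library a or b, and 0.152 and 0.0584 without WT library a or b.

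Among kinases, PLK2 rose to 400 ± 1.35 CPM in KO against 231 ± 6.03 CPM in WT (log2 fold change 0.74), PLK3 fell to 7.88 ± 1.06 CPM in KO against 17.5 ± 1.20 CPM in WT (-1.21), and PLK4, the centriole duplication kinase, fell by 0.12 on the log2 scale. The PLK4 call was lost when library totals alone were used (edgeR quasi-likelihood, BH-adjusted p = 0.0811). AURKB, the kinase of the chromosomal passenger complex, fell with AURKA, to 86.9 ± 3.10 CPM in KO against 99.4 ± 1.24 CPM in WT (-0.25). AURKC passed the filter only through the KO libraries. It was low in both, at 0.401 ± 0.136 CPM in KO and 0.113 ± 0.078 CPM in WT, and its call (log2 fold change 1.73; edgeR quasi-likelihood, BH-adjusted p = 0.0205) was lost without KO library c (0.0813) or WT library b (0.0835). BCAR1, the abundant CAS family relative of NEDD9, rose to 108 ± 2.38 CPM in KO against 92.3 ± 1.95 CPM in WT (0.17). KIF2C, a mitotic relative of KIF2A, rose to 216 ± 1.42 CPM in KO against 190 ± 2.58 CPM in WT (0.13). PLK5 and KIF2B had 0 counts in all 6 libraries, and EFS, CASS4 and TTBK1 were too low to be tested.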

How the data were processed

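RNA of 6 HuCCT1 libraries was analysed, 3 per clone. The authors deposited whole-number read counts per gene symbol with no normalization. Trimmomatic 0.33, FastQC, HISAT2, edgeR and build hg38 are named, per the submitters' processing notes; how reads were assigned to genes, by which annotation and whether by strand, is not given in the sources used here. The 10 genes and the related lists were chosen with earlier results of these data known. From the counts, edgeR 4.0.16 in R 4.3.3 was run over the whole table (filterByExpr, TMM, quasi-likelihood F test of KO against WT, no covariate, BH adjustment, threshold 0.05), which tested 14405 genes and left out 12080 rows. Each standard error was taken as the absolute log2 fold change over the root of its F statistic. Named genes beyond the 10 are all tested paralogues and, from each other list, the 2 members highest and 2 lowest in fold change among those called, unless stated; those of the cell type lists are given as counts. Some genes that this rule picks are not reported here. Profiles were compared on log2(CPM + 0.1). A count of 3 equals 0.0719 to 0.0812 CPM, which limits counting precision only. Between libraries of a group, chi-square over its degrees of freedom ranged from 4.18 to 7.6, so no pair agreed within sampling noise. Alternatives were RLE factors, library totals, other filters, DESeq2 1.42.0, limma-voom (limma 3.58.1), a replicate block, each library left out, an adjusted p of 0.01 and glmTreat at 1.5-fold. The fit was tested on simulated counts.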

Additional observations from a re-analysis of the deposited data

How the results depend on the processing

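The calls and directions of NEDD9 and TTBK2 held under all 15 alternatives, with log2 fold changes of -1.81 to -1.65 and 0.94 to 1.16. Those of AURKA, PLK1, KIF2A, CEP164, CCP110 and CEP97 held under 14 and were lost only under glmTreat, which asks for a change beyond 1.5-fold. There 2 of the 10 genes were called, 1 higher and 1 lower, and 4354 genes in all (2384 higher, 1970 lower). HDAC6 was not called anywhere, and without single libraries ran from -0.038 to 0.066. KIF24 was called in 3 alternatives, given above. Without single libraries HDAC1 ran from -0.039 to 0.0049, HDAC7 from -0.050 to 0.0018 and HDAC10 from -0.011 to 0.14; with library totals alone HDAC1 was 0.028 and HDAC7 0.020, and the median of all genes was 0.06. Libraries sharing a letter did not deviate together (r = 0.058, -0.019 and 0.008 for a, b and c), and not every library correlated best with its own letter; with the letters as a replicate block, 8 of the 10 genes and 10599 genes in all were called. The immune marker ITGAM lost its call there (edgeR adjusted p = 0.0618). With 3 libraries per clone and 1 clone per genotype, differences between clones and effects of AQP1 loss cannot be told apart.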
